A study of Homo sapiens with 9 samples.

Results

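Lysosomes are acidic organelles in which hydrolases break down material delivered by autophagy, endocytosis and phagocytosis. The vacuolar ATPase (V-ATPase) pumps protons into the lumen, heavily glycosylated proteins such as LAMP1 and LAMP2 line its membrane, and cathepsins, glycosidases, sulfatases and lipid hydrolases do the digestion. Many of these genes carry a short E-box element in their promoters that is bound by the transcription factor TFEB and its relatives, and autophagosomes and phagosomes both end by fusing with lysosomes.

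The set comprised 58 of the 20575 genes measured, picked out by Entrez gene number, the identifier in the files. No measured value entered the rule, but the set was chosen with earlier results of these data known. It held 7 subunits of the membrane-embedded V0 sector of the V-ATPase, 10 subunits of its cytosolic V1 sector and 2 accessory proteins, together with 6 lysosomal membrane proteins, 9 cathepsins and other proteases, 11 glycosidases, 5 sulfatases, 6 lipid-handling proteins and 2 genes for sorting and progranulin. RNA had been sequenced from Huh7 cells, a human hepatocellular carcinoma line, harvested 48 hours after transfection with a control siRNA (siControl), an siRNA against LATS1 (siLATS1) or an siRNA against LATS2 (siLATS2), with 3 replicates in each group. LATS1 and LATS2 are the kinases that close the Hippo pathway, and the study asked how the loss of either changes the transcriptome of these cells and reported on phagosomal pathways among others. The labels name no drug for these cultures, whereas the description of the experiment in the study speaks of sorafenib, and the groups are given here as the labels name them.

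The deposited values were read counts scaled to the library total (CPM), from which totals of 23550000 to 32190000 reads per library were recovered. LATS1, the targeted gene, read 110.03, 55.2 and 62.9 CPM after scaling in siControl replicates 1 to 3, 27.1, 20.1 and 15.6 in siLATS1, and 54.7, 78.6 and 51.2 in siLATS2. The siLATS1 libraries lay below all others (exact two-sided permutation test against siControl, p = 0.1, the smallest that 3 against 3 allows). In the limma fit used below, the log2 fold change of LATS1 against siControl was -1.78 (SE 0.31, limma adjusted p = 0.126). Without siControl replicate 1 it was -1.50 (limma adjusted p = 0.0660). Even the targeted gene thus missed the adjusted threshold, so a gene that misses it cannot be taken as unchanged. LATS2 was not analysed here. The hepatocyte gene ALB was read at 2962 to 6210.5 CPM in every library, whereas the leukocyte gene PTPRC stayed between 0.179 and 1.03 CPM and the macrophage gene CSF1R between 0.0365 and 0.394 CPM. The other markers of non-hepatocyte cells, CD14, PECAM1, COL1A1 and COL1A2, reached higher values than PTPRC and CSF1R, and their ranges are given at the end.

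The promoters of the set were examined for the element of the TFEB family, because many lysosomal genes are known to carry it. RefSeq promoter windows on GRCh38.p14, each holding 250 bases before and 50 bases from a transcription start, were at hand for 41 of the 58 genes. The 6-letter core CACGTG, which reads the same on both strands, lay in a window of 13 of these 41 genes (31.7%), against 11.2% of all genes in the files with a window and 12.7% of those tested. Its 8-letter extension TCACGTGA, which contains the core, lay in 6 of the 41 (14.6%), against 1.76% of all genes in the files with a window and 2.28% of those tested. The 6 genes were ATP6V0D1, ATP6V1G1, LAMP1, MCOLN1, CTSA and GAA. Since the element was already known from lysosomal genes, these shares describe the set and are no test of it. The windows of LAMP1 (lysosomal membrane), GAA (glycogen breakdown) and ATP6V0D1 (V-ATPase) are shown, 5′ to 3′ along the gene, with each copy of the extended element in capitals, since they show how close to the start site it sat.
LAMP1, chr13:113296989-113297288, plus strand: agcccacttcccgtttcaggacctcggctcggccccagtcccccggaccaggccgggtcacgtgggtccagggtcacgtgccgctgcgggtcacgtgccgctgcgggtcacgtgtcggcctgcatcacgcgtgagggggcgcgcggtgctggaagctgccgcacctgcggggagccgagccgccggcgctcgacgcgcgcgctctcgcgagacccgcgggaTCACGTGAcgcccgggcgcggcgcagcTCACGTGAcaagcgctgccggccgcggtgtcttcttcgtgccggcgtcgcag
GAA, chr17:80101331-80101630, plus strand: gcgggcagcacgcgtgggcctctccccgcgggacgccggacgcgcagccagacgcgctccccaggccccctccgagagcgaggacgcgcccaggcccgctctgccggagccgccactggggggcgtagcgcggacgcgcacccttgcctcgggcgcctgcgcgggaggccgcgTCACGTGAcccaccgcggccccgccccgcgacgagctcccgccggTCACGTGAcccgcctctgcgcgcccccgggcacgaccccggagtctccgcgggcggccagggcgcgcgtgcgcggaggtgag
ATP6V0D1, chr16:67481108-67481407, minus strand: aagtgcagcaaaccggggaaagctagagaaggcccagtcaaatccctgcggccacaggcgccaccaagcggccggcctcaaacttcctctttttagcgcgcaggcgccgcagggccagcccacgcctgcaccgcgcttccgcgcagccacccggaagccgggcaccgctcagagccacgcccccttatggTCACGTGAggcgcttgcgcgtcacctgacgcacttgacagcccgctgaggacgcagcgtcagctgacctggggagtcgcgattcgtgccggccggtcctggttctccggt
Copies began 29 and 2 bases before the start in LAMP1, 77 and 32 bases before it in GAA, and 60 bases before it in ATP6V0D1. Among the 17 genes with no window in the table were LAMP2, ATP6V1A, ATP6V0E1, CTSB, CTSS, HEXA and PSAP.

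Of the 58 genes, 55 reached 1 CPM in at least 3 of the 9 libraries and were tested. The others were ATP6V1B1, a V1 subunit of kidney and other specialised epithelia, with 3 reads in 1 library and 0 in the other 8, ATP6V1C2 with 9 reads over all libraries, and IDUA, which cleaves glycosaminoglycans, with 1 to 29 reads per library. A count of 0 allowed up to 0.0932 to 0.127 CPM, depending on the library. Together the 58 genes took 0.574% to 0.677% of the reads of a library. Per kilobase of transcript, the mean scaled level over the 9 libraries was highest for PSAP, the precursor of the saposins that help degrade sphingolipids, at 312 CPM per kilobase. It was followed by the V1 subunit ATP6V1E1 at 202 and the tetraspanin CD63 at 201 CPM per kilobase. The lowest tested gene was CTSS, a cathepsin best known from antigen-presenting cells, at 0.378 CPM per kilobase.

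One library stood apart before any comparison. In siControl replicate 1, 17 of the 55 genes were at least 2-fold below the mean of siControl replicates 2 and 3 (30.9%, against 23.3% of all tested genes), and 12 were more than 0.5 on the log2 scale above it (21.8%, against 33.7%). GAA, the acid alpha-glucosidase that degrades glycogen, read 3.16, 64.2 and 75.8 scaled CPM in siControl replicates 1 to 3. CTSD, the main aspartic protease of the lysosome, read 17.4, 225 and 255, and GRN, the precursor of the granulins, read 5.97, 72.9 and 76.1. The opposite held for LAMP2 with 408, 185 and 239 and for ATP6AP2, an accessory protein of the V-ATPase, with 218, 97.0 and 120. The difference followed the base composition of the transcripts. The low genes had a median transcript GC content of 59.96% and the high ones of 41.0%, and over 54 genes of the set with a value the deviation of siControl replicate 1 and GC content had a Pearson r of -0.92 and a Spearman rho of -0.94. Over all 12623 tested genes with a value the same r was -0.87, and over the lysosomal genes the r with log2 transcript length was 0.20. These correlations are across genes of the same libraries and are given as a description.

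**Figure D1:**
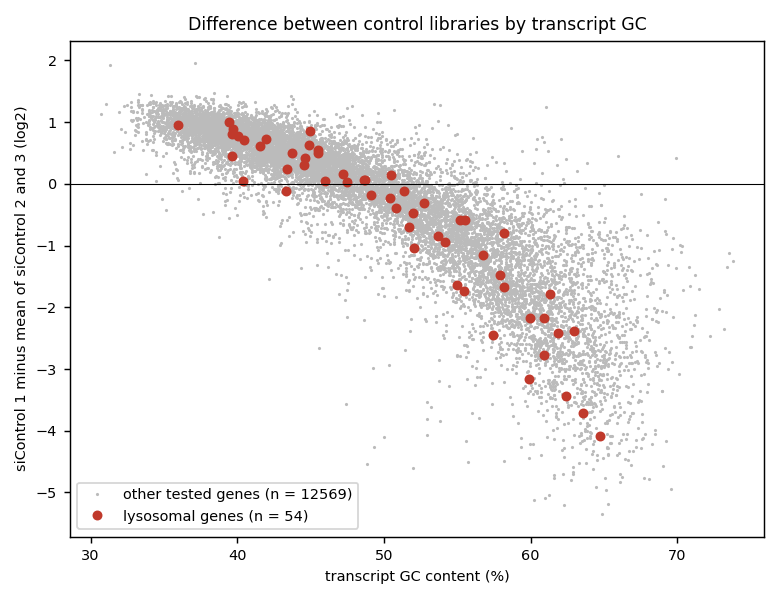
Difference of siControl replicate 1 from the mean of siControl replicates 2 and 3 (log2 of scaled CPM + 1, vertical axis) against transcript GC content (percent, horizontal axis), with 54 lysosomal genes in red over the other tested genes in grey. The lysosomal genes fall with rising GC content, as the other tested genes do, from LAMP2 at the upper left to GAA at the lower right.

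The same 2 classes of genes moved between replicates of the other groups as well. The 17 genes that were low in siControl replicate 1 had a median deviation from the mean of the 9 libraries of -1.78 (log2) there. Their median deviation was 0.44 and 0.46 in siControl replicates 2 and 3. It was -0.43, 0.03 and 0.56 in siLATS1 replicates 1 to 3, and 0.29, -0.09 and 0.45 in siLATS2. The spread between replicates of a group was thus wide and ordered. The median range within a group over the tested members was 0.75, 0.45 and 0.37 on the log2 scale in siControl, siLATS1 and siLATS2, and it was 0.24, 0.21 and 0.16 once curves over transcript GC content and length had been subtracted from each library. What produced the trend with GC content was not tested. Results are given as scaled, with the value without siControl replicate 1 where its direction or size turned on that library.

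**Figure D2:**
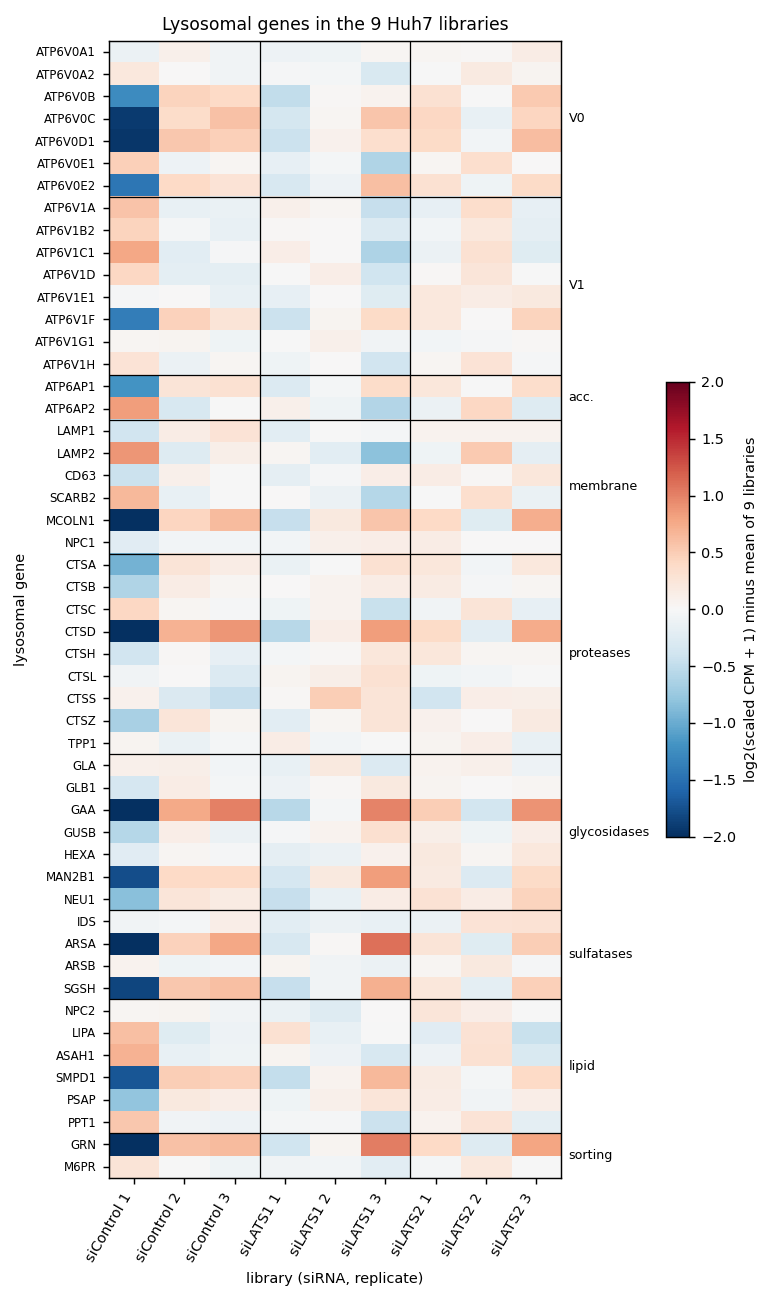
Level of 51 tested lysosomal genes (rows, grouped by role) in the 9 libraries (columns), as log2(scaled CPM + 1) minus the mean of the 9 libraries, with colours saturating at -2 and 2. The dark blue and red cells of siControl 1 stand out, and siLATS1 3 shows the opposite pattern of siControl 1 in many rows.

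In siLATS1 against siControl, no lysosomal gene passed the threshold of the study (unadjusted p under 0.05 with an absolute log2 fold change of at least 0.58) in limma, against 376 of the 12901 tested genes (2.91%). None passed with the Benjamini-Hochberg adjusted p in its place, against 13 genes (0.101%). At an unadjusted p under 0.05 and any fold the count was 0 of 55 in limma, 0 in edgeR and 1 in DESeq2 on the recovered reads. The 55 log2 fold changes were spread around 0, with 28 above and 27 below and a median of 0.01, beside 0.02 over all tested genes. The sign of that median hung on the scaling: it was 0.10 on the CPM as deposited (all genes 0.10) and -0.01 with median-of-ratios scaling (all genes 0.00). Every siLATS1 library lay above every siControl library for 2 of the 55 genes, CTSL and NPC1 (all genes 5.77%), and below for 1, the iduronate sulfatase IDS (all genes 2.71%).

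Without siControl replicate 1 the balance changed. The median of the 55 genes was -0.10, with 14 above 0 and 41 below, while the median over all tested genes was -0.01. Now 1 gene, CTSS, passed the unadjusted threshold of the study, as did 5.66% of all tested genes. CTSS read 1.58, 1.004 and 0.775 scaled CPM in siControl, 1.47, 2.43 and 1.93 in siLATS1 and 0.870, 1.68 and 1.65 in siLATS2. The siControl and siLATS1 ranges overlapped through siControl replicate 1. The log2 fold change of CTSS was 0.48 (SE 0.21, limma adjusted p = 0.887) with all libraries and 0.62 (SE 0.21, limma adjusted p = 0.294) without that library. At 0.775 to 2.43 CPM, CTSS was the least abundant gene tested, and it was singled out after its values had been seen.

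In the V-ATPase, 6 of the 17 tested genes were above 0 in siLATS1 against siControl and 11 below, with a median log2 fold change of -0.08, and none passed a threshold. On the CPM as deposited 9 were above 0 and the median was 0.01. ATP6V1A, the catalytic A subunit on which ATP is split, read 307, 187 and 189 scaled CPM in siControl, 223, 212 and 149 in siLATS1 and 185, 265 and 184 in siLATS2. ATP6V0D1, which links the rotor to the membrane ring, read 10.5, 62.9 and 60.5 in siControl, 31.7, 46.1 and 54.7 in siLATS1 and 56.4, 41.5 and 66.6 in siLATS2. The siLATS1 values of ATP6V0D1 lay inside the range of siControl, and those of ATP6V1A overlapped it, with siLATS1 replicate 3 below all siControl libraries. The log2 fold change of ATP6V1A was -0.20 (95% interval -0.80 to 0.39) and that of ATP6V0D1 was 0.31 (-1.10 to 1.72), so that changes past the threshold of 0.58 lay within both intervals. Without siControl replicate 1 the log2 fold change was 0.02 for ATP6V1A and -0.52 for ATP6V0D1, so that both changed sign. All 7 V0 genes were below 0 without that library, with a median of -0.29, against 4 of 7 with it. Of these, only ATP6V0B, a proteolipid of the membrane ring, had an unadjusted limma p under 0.05 there, with a log2 fold change of -0.57, and it fell short of the fold threshold. ATP6V0E1, a small V0 subunit, had the largest change of the V0 genes with all libraries, at -0.41 (SE 0.21, limma adjusted p = 0.979), and -0.25 without siControl replicate 1. It read 165, 111 and 122 in siControl and 105, 115 and 78.2 in siLATS1.

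Among the 6 membrane proteins, 3 were above 0 and 3 below in siLATS1 against siControl. LAMP1 read 118, 169 and 186 scaled CPM in siControl, 132, 152 and 149 in siLATS1 and 162, 160 and 162 in siLATS2. The siLATS1 and siControl libraries overlapped, and the siLATS2 libraries lay within 2 CPM of each other. LAMP1 had a log2 fold change of -0.10 (SE 0.18) in siLATS1, and of -0.31 (limma adjusted p = 0.338) without siControl replicate 1. LAMP2, which covers the lysosomal membrane beside LAMP1 and whose isoforms were counted together here, read 408, 185 and 239 in siControl, 227, 190 and 125 in siLATS1 and 207, 316 and 195 in siLATS2. It had the most negative log2 fold change of the set, at -0.58 (SE 0.34, limma adjusted p = 0.979), and this was -0.27 without siControl replicate 1 and -0.88 (limma adjusted p = 0.637, past the unadjusted threshold) without siControl replicate 2. NPC1, which exports cholesterol from the lysosome, read 61.8, 70.0 and 69.8 in siControl, 70.1, 77.9 and 79.8 in siLATS1 and 80.9, 73.2 and 73.2 in siLATS2. Its log2 fold changes were 0.17 (SE 0.13) in both comparisons with siControl (0.10 in each without siControl replicate 1), and the siLATS1 and siLATS2 libraries all lay above the siControl libraries by a narrow margin.

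**Figure D3:**
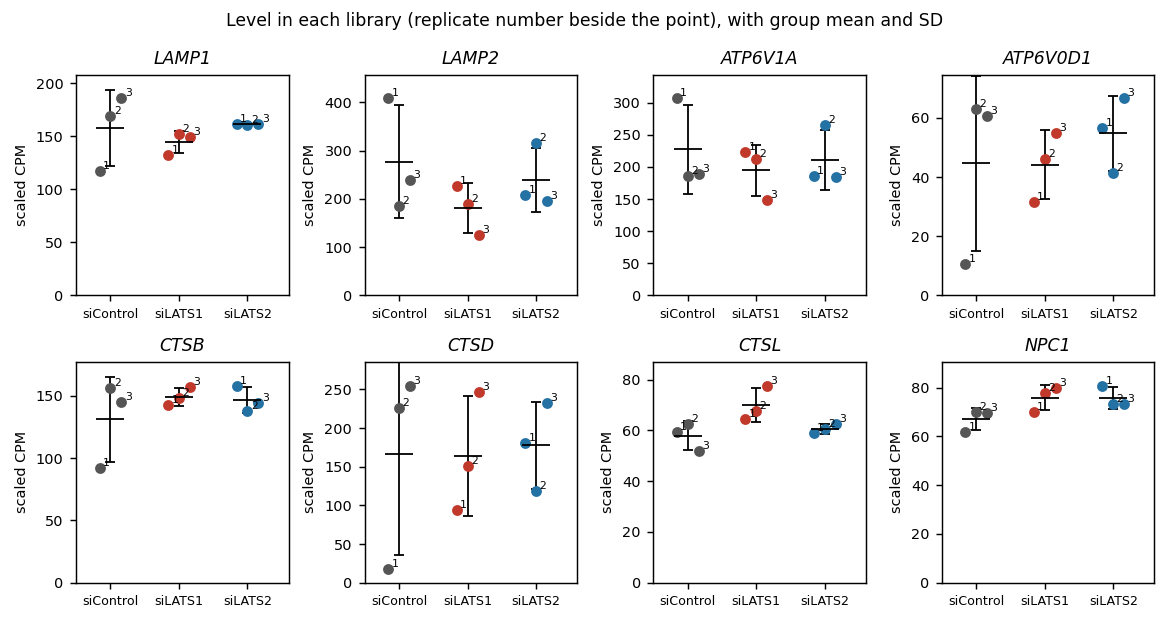
Scaled CPM (vertical axis, from 0) of 8 lysosomal genes in each library of siControl, siLATS1 and siLATS2, with the replicate number beside each point and the group mean and SD as bars. LAMP2 and ATP6V1A are highest, and CTSD and ATP6V0D1 lowest, in siControl 1, whereas CTSL is slightly higher in the 3 siLATS1 libraries than in the other 6.

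The proteases leaned upwards with all libraries, with 8 of 9 above 0 in siLATS1 against siControl and a median log2 fold change of 0.24, but only 4 of 9 were above 0 without siControl replicate 1. CTSL, a cysteine cathepsin, read 59.4, 62.6 and 51.8 scaled CPM in siControl, 64.6, 67.8 and 77.7 in siLATS1 and 58.8, 60.4 and 62.4 in siLATS2. The 3 siLATS1 values were above the other 6. The log2 fold change against siControl was 0.27 (SE 0.14, limma adjusted p = 0.979) and was 0.28 without siControl replicate 1. CTSB, the most studied cysteine cathepsin, read 92.5, 156 and 145 in siControl, 142, 148 and 157 in siLATS1 and 158, 138 and 144 in siLATS2. Its log2 fold change was 0.22 (SE 0.20), and -0.03 without siControl replicate 1. CTSD read 94.1, 151 and 247 in siLATS1 and 181, 119 and 232 in siLATS2, so its log2 fold change of 0.58 (SE 0.93) in siLATS1 carried a 95% interval from -1.54 to 2.71, and without siControl replicate 1 it was -0.67. TPP1 (Entrez 1200), a tripeptidyl peptidase and the most abundant of the proteases by scaled CPM, was steady at 203 to 250 CPM over the 9 libraries, with a log2 fold change of 0.06 (SE 0.13).

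Of the 10 tested glycosidases, 6 were above 0 and 4 below in siLATS1 against siControl. GAA read 25.2, 36.5 and 75.1 scaled CPM in siLATS1 and 53.1, 28.8 and 70.7 in siLATS2, values that lay inside the wider range of siControl. Its log2 fold change was 0.61 (SE 1.04) with all libraries and -0.76 without siControl replicate 1. GLB1, the lysosomal beta-galactosidase, read 183, 256 and 226 in siControl, 216, 235 and 264 in siLATS1 and 242, 234 and 238 in siLATS2, with log2 fold changes of 0.12 (SE 0.15) in both comparisons with siControl. Both changed sign without siControl replicate 1, to -0.03 in each.

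In siLATS1 against siControl 2 of 5 sulfatases and 2 of 6 lipid-handling genes were above 0. ARSA (Entrez 410), which desulfates sulfatides, read 3.07, 31.9 and 39.6 scaled CPM in siControl and 18.1, 23.3 and 49.96 in siLATS1, with a log2 fold change of 0.71 (SE 0.82) that became -0.36 without siControl replicate 1. PSAP, the most abundant gene of the set, read 488, 960 and 922 in siControl, with means of 899 ± 102 in siLATS1 and 886 ± 73.6 in siLATS2 (SD, n = 3), and its log2 fold change in siLATS1 was 0.24 (SE 0.25), or -0.08 without siControl replicate 1. SMPD1, the acid sphingomyelinase, read 15.8, 76.0 and 74.1 in siControl and 38.5, 56.6 and 84.8 in siLATS1, with a log2 fold change of 0.34 (SE 0.57) that became -0.40 without siControl replicate 1. GRN read 36.7, 50.2 and 99.9 in siLATS1, and its log2 fold change of 0.76 (SE 0.88), the largest positive one of the set, was -0.39 without siControl replicate 1. M6PR, the receptor that carries new hydrolases to the lysosome, read 147, 121 and 115 in siControl and 116, 118 and 105 in siLATS1, with a log2 fold change of -0.17 (SE 0.14), and -0.08 without siControl replicate 1.

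**Figure D4:**
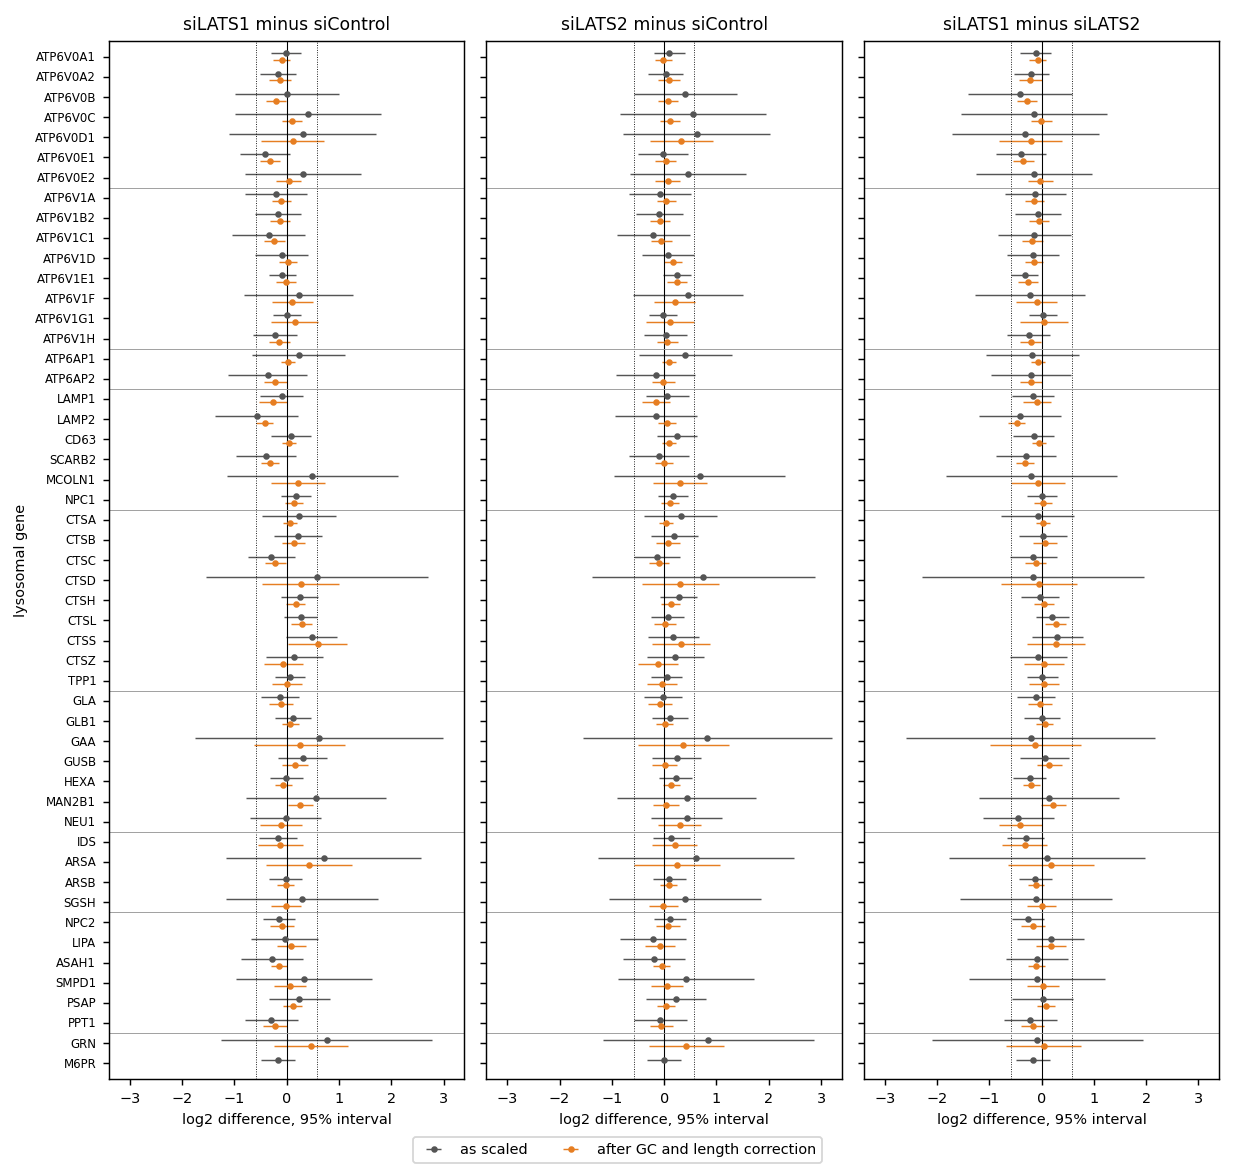
Log2 difference with 95% interval (horizontal axis) for 51 tested lysosomal genes (rows, by role) in siLATS1 minus siControl, siLATS2 minus siControl and siLATS1 minus siLATS2, as scaled (grey) and after the correction for transcript GC content and length (orange), with dotted lines at -0.58 and 0.58. The grey intervals of genes such as GAA, CTSD and GRN are clearly wider than the orange ones, and the LAMP2 interval lies below 0 in the left and right panels after correction. M6PR has no corrected value.

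In siLATS2 against siControl, no lysosomal gene passed the threshold of the study in limma, against 35 of 12901 genes (0.271%). With the adjusted p no gene of the table passed at all (0%), where 110 genes had an unadjusted p under 0.05 at any fold in limma and edgeR and DESeq2 also gave 0 adjusted calls. At an unadjusted p under 0.05 and any fold there were 0 lysosomal genes in limma, 0 in edgeR and 1 in DESeq2. The log2 fold changes were above 0 for 39 of 55 genes and below for 16, with a median of 0.17 beside 0.03 over all tested genes. The median stayed positive under both other scalings but was 0.04, with 30 above 0 and 25 below, without siControl replicate 1, when again no lysosomal gene passed (all genes 0.535%). Every siLATS2 library lay above every siControl library for 4 of 55 genes (all genes 2.87%), namely ATP6V1E1, NPC1, CTSH and HEXA, and below for 0 (all genes 0.643%). Because both comparisons share the siControl libraries, the deviation of siControl replicate 1 enters both.

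The direct comparison of siLATS1 with siLATS2 does not use the siControl libraries as a group. They still enter the estimate of spread that all 9 libraries share in the fit. No lysosomal gene passed the threshold of the study in limma, against 240 of 12901 genes (1.86%), and no gene of the table passed with the adjusted p (0%), where edgeR gave 0 and DESeq2 100 adjusted calls over all genes and none in the set. The 55 log2 fold changes were mostly negative, with 12 above 0 and 43 below and a median of -0.14 beside -0.03 over all tested genes. On the CPM as deposited the median of the set was -0.06 while that of all genes was 0.04. In the V-ATPase 16 of 17 genes were lower in siLATS1 than in siLATS2 by their fitted value, ATP6V1G1 being the exception, with a median of -0.18, where 7439 of all 12901 genes were below 0. The count was 15 on the CPM as deposited and 16 with median-of-ratios scaling, and all 7 V0 genes were below 0 under each of these scalings. When single siLATS1 or siLATS2 libraries were dropped, a check added after the values had been seen, 12 to 17 of the 17 were below 0, with 12 without siLATS1 replicate 3 or siLATS2 replicate 2, and 5 of the 7 V0 genes were below 0 without siLATS1 replicate 1. Over the 55 genes the number above 0 was 24 instead of 12 without siLATS1 replicate 1, with a median of -0.07. These are counts of signs, and the members of a pathway measured in the same libraries are not independent of each other. ATP6V1E1, which forms part of the stator of the V1 sector, read 263, 269 and 242 scaled CPM in siControl, 238, 269 and 226 in siLATS1 and 311, 298 and 307 in siLATS2. The siLATS2 libraries were above the other 6. With all 9 libraries ATP6V1E1 was the only lysosomal gene with an unadjusted limma p under 0.05 at any fold in any of the 3 comparisons (all genes 3.91% here). Its log2 fold change was -0.33 (SE 0.12, limma adjusted p = 0.961). Without siControl replicate 1, ATP6V1E1, ATP6V0E1 and NEU1 had an unadjusted limma p under 0.05. Their log2 fold changes there were -0.32, -0.39 and -0.45 (limma adjusted p = 0.461, 0.671 and 0.510). No lysosomal gene passed the threshold of the study in that run, against 2.39% of all tested genes. Every siLATS1 library lay above every siLATS2 library for 1 of 55 genes, CTSL (all genes 5.8%), and below for 6, among them ATP6V0A2, ATP6V0E1, ATP6V1E1 and LAMP1 (all genes 6.63%).

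After the correction for transcript GC content and length, which was added once the deviation of siControl replicate 1 had been seen, 54 lysosomal genes could be tested among 12623 genes. Here LAMP2 was lower in siLATS1 than in both other groups. On the corrected log2 scale it read 7.90, 7.88 and 7.97 in siControl, 7.55, 7.56 and 7.37 in siLATS1 and 7.93, 8.06 and 7.92 in siLATS2, so that the siLATS1 libraries lay below the other 6. The log2 fold change was -0.42 (SE 0.07, limma adjusted p = 0.0240) against siControl and -0.48 (SE 0.07, limma adjusted p = 0.0256) against siLATS2. Of the 54 genes, only LAMP2 had an adjusted p under 0.05 at any fold in either comparison, against 2.23% and 1.08% of all genes, and its change did not reach the fold threshold of the study. When single libraries were dropped, its log2 fold change ranged from -0.46 to -0.36 against siControl and from -0.51 to -0.42 against siLATS2. The adjusted p was 0.0155 without siControl replicate 1 and 0.0311 without siLATS1 replicate 2, and 0.0724 to 0.105 without siControl replicate 2 or 3 or siLATS1 replicate 1 or 3. Against siLATS2 it was 0.0352 without siLATS1 replicate 2 and 0.0932 to 0.120 without any of the other 5 libraries. Since LAMP2 has the lowest transcript GC content of the tested genes of the set, at 36.0%, its value rests heavily on the fitted curves, whose own uncertainty is not in the SE. A lower CPM in a whole culture cannot be told apart from fewer cells that carry the transcript.

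The values of 4 other genes, none past the adjusted threshold, are given beside LAMP2 and were picked out after they had been seen. SCARB2 and ATP6V0E1 had negative values like LAMP2, and CTSL and CTSS positive ones. SCARB2 (Entrez 950), a membrane protein that also sorts cargo to the lysosome, had a corrected log2 fold change of -0.32 (SE 0.08, limma adjusted p = 0.0757) against siControl and -0.31 (adjusted p = 0.112) against siLATS2. ATP6V0E1 had -0.32 (SE 0.09, limma adjusted p = 0.109) and -0.35 (adjusted p = 0.124). CTSL had 0.28 (SE 0.09, limma adjusted p = 0.157) and 0.27 (adjusted p = 0.229), with its 3 siLATS1 values again above the other 6. CTSS had 0.59 (SE 0.25, limma adjusted p = 0.258) against siControl and was the only lysosomal gene past the unadjusted threshold of the study in that comparison (all genes 3.12%). At an unadjusted p under 0.05 and any fold, 11 of 54 lysosomal genes stood against 17.4% of all genes in siLATS1 against siControl, and 10 of 54 against 13.3% in siLATS1 against siLATS2. The V-ATPase signs in the latter were again 16 of 17 below 0, with 5 of them at an unadjusted p under 0.05.

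**Figure D5:**
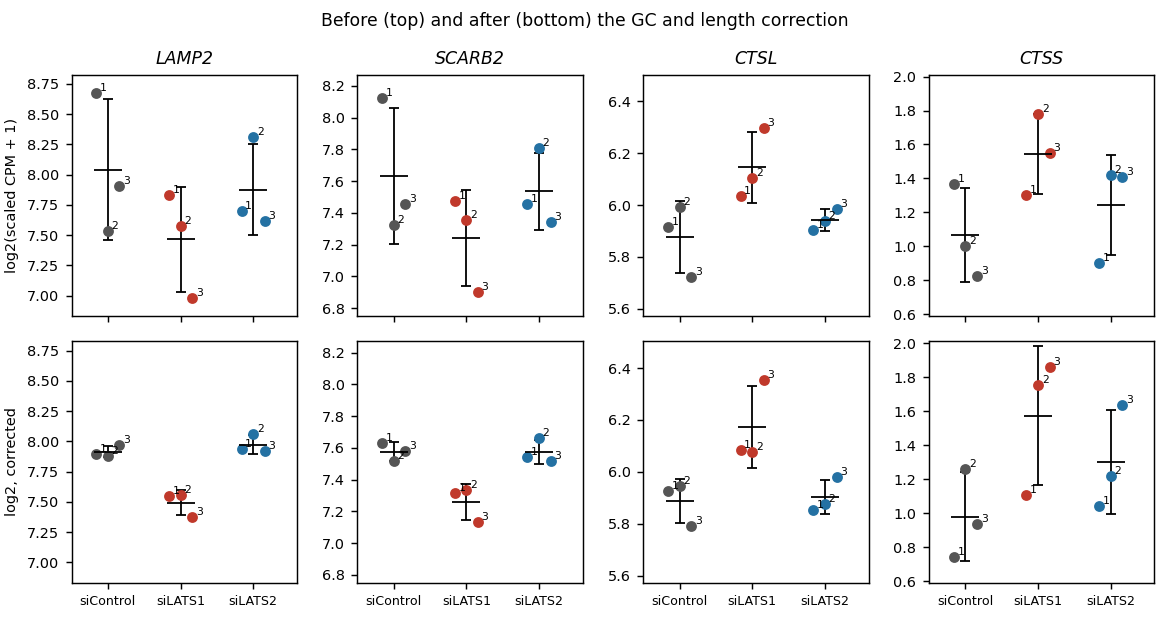
Log2 level of LAMP2, SCARB2, CTSL and CTSS in each library before (top) and after (bottom) the correction for transcript GC content and length, with group mean and SD as bars and the replicate number beside each point. LAMP2 spans 7.55, 7.56 and 7.37 in siLATS1 after correction, below the other 6 libraries, whereas the libraries overlap before it, and CTSS overlaps in both rows.

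In genomic terms (GRCh37), LAMP2 lies on the minus strand at chrX:119560003-119603220 with 9 exons in its canonical transcript, CTSL on the plus strand at chr9:90338966-90346384 with 8 exons, and ATP6V1E1 on the minus strand at chr22:18074902-18111515 with 9 exons. The values are sums over all exons of a gene, so no part of a transcript was resolved.

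The lists around the set gave the following counts in siLATS1 against siControl at the unadjusted threshold of the study. Of 14 regulators of lysosomal genes and lysosomal signalling, among them TFEB, TFE3 and MITF, none passed, with 7 above 0. TFEB read 0.220, 4.42 and 4.43 scaled CPM in siControl, 1.54, 1.97 and 2.85 in siLATS1 and 2.70, 1.60 and 3.84 in siLATS2, again lowest in siControl replicate 1. All siLATS1 and siLATS2 values lay above that library and below the other siControl libraries, so the size of any TFEB difference from siControl turned on it. With that library left out, every siLATS1 and siLATS2 library read lower for TFEB than siControl. The fold change of TFEB is not reported here. The log2 fold change was 0.14 (SE 0.30) for TFE3 and -0.000691 (SE 0.21) for MITF. Of 30 other lysosomal genes none passed, with 22 above 0 and a median of 0.14, and 15 above 0 without siControl replicate 1. Of 28 other phagosome genes, tubulins and MHC genes not included, 25 were tested, 9 were above 0 and 1 rose past the threshold (2.91% of all genes in either direction), also with the adjusted p (0.101%). This gene is not reported here by name.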

How the data were processed

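RNA of 9 Huh7 libraries (TruSeq stranded total RNA kit, described by the study as biological triplicates; the labels give ribosomal RNA removal, the methods of the study poly-A+ RNA) had been aligned by the authors to hg19 with STAR and counted per gene over RefSeq exons with QuasR from uniquely mapped reads. The authors deposited CPM per Entrez gene, 1 file per library, and 1 row per file without a gene number was left out. All values were whole multiples of 1 read within 0.1 read, which gave the read totals. CPM were scaled by unweighted TMM factors (0.957 to 1.06) over all genes, and log2(scaled CPM + 1) was fitted, for the 12901 genes reaching 1 CPM in 3 or more libraries, with limma 3.58.1 (R 4.3.3, mean-variance trend, all 9 libraries, no block). Fold changes are on this log2 scale, which understates changes of low genes. Calls followed the threshold of the study (p under 0.05, absolute log2 fold change at least 0.58), with Benjamini-Hochberg adjustment over all genes tested. edgeR 4.0.16 and DESeq2 1.42.0 on the recovered reads, other scalings, filters and pseudocounts, and leaving out each library were alternatives. The correction subtracted from each library lowess curves (span 0.3) of its deviations over GC content and log2 length of canonical transcripts (GENCODE, GRCh37), available for 97.9% of tested genes, without regard to group. No pair of replicates within a group agreed within sampling noise. The limma fit was tested on simulated data that held no trend with GC content and no outlying library. The correction for GC content and length was not part of that test. Named genes were, per list, the one with the largest absolute change in siLATS1 and the most abundant one, any past the threshold, and ATP6V1A, ATP6V0D1, LAMP1, LAMP2, CTSB, CTSD, CTSL and NPC1. Some genes that this rule names, and some rows of the plots, are not reported here. The members and lists were chosen with earlier results of these data known. Intervals are at 95%.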

Additional observations from a re-analysis of the deposited data

How the results depend on the processing

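Leaving out each library in turn moved the median log2 fold change of the lysosomal genes in siLATS1 against siControl from 0.01 to between -0.10 (without siControl replicate 1) and 0.13 (without siControl replicate 2), and the number of them past the unadjusted threshold from 0 to between 0 and 1, CTSS without siControl replicate 1 or siLATS1 replicate 1 and LAMP2 without siControl replicate 2. The correction for transcript GC content and length also gave 1, CTSS. In siLATS2 against siControl the median of 0.17 became 0.06 with edgeR (0.0646), 0.06 with the correction (0.0631) and 0.04 without siControl replicate 1 (0.0440), and reached 0.19 without siControl replicate 3. No lysosomal gene passed the adjusted threshold with its fold in any alternative run. Over all genes, the 13 adjusted calls in siLATS1 against siControl were 166 with DESeq2, 169 after the correction, 5 with edgeR, 40 without siControl replicate 1, 0 without siControl replicate 2 or 3, siLATS1 replicate 1 or siLATS2 replicate 1 or 3, 1 without siLATS1 replicate 3 or siLATS2 replicate 2, and 0 when only the 6 libraries compared were fitted, and the 0 in siLATS1 against siLATS2 were 100 with DESeq2, 92 after the correction, 19 without siControl replicate 1 and 3 each without siLATS1 replicate 2 and with no filter on low values, while the 376 unadjusted calls became 730 without siControl replicate 1 and 234 without siLATS1 replicate 3. The 35 unadjusted calls in siLATS2 against siControl became 68 with edgeR, 70 with DESeq2, 72 with a pseudocount of 0.1, and 11 to 69 when single libraries were dropped. With the replicate number as a replicate block, 400, 46 and 256 genes passed unadjusted in the 3 comparisons (376, 35 and 240 without it), 0 lysosomal genes passed and the medians were 0.01, 0.17 and -0.14, so no call on them changed, while the 13 adjusted calls over all genes became 0. Deviations from the group mean correlated at -0.87 to 0.92 between same-numbered libraries of different groups, and at -0.91 to 0.87 between differently numbered ones. They were not corrected for the trend with GC content that runs through whole libraries. The correlations therefore cannot show whether the numbers mark a pairing. The causes of these shifts were not tested. An effect of depth was not tested. The genes near 1 CPM or below, CTSS and the 3 genes that were not tested, had the fewest reads of the set.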

Other observations

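Among the markers of the hepatocyte lineage, SERPINA1 (alpha-1-antitrypsin) read 273, 475 and 335.5 scaled CPM in siControl and 564, 506 and 685 in siLATS1, with a log2 fold change of 0.72 (SE 0.21, limma adjusted p = 0.499), and APOB, the structural protein of hepatic lipoproteins, read 4572, 3069 and 2804 in siControl and 2306, 2519.5 and 1577 in siLATS1, with -0.70 (SE 0.25, limma adjusted p = 0.691). For both genes siControl replicate 1 lay furthest from the siLATS1 libraries and so widened the difference. TTR passed the unadjusted threshold upwards with 0.77 (SE 0.31), and the other 4 of the 7 hepatocyte genes did not pass. Thus 2 passed upwards and 1 downwards, where 2.91% of all tested genes passed in either direction. None passed with the adjusted p (0.101% of all tested genes). Values without siControl replicate 1 are not reported here for these genes.

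Of the markers of other cell types, the endothelial gene PECAM1 read 0.643 to 2.72 scaled CPM over the 9 libraries, the macrophage gene CD14 0.878 to 12.1, and the fibroblast genes COL1A1 0.307 to 2.19 and COL1A2 3.997 to 23.0. PECAM1 had a log2 fold change of -0.72 (SE 0.20, limma adjusted p = 0.421) in siLATS1 against siControl. This gene, with levels near the filter of 1 CPM, was past the unadjusted threshold of the study, as were 2.91% of all tested genes in either direction. Its value without siControl replicate 1 is not reported here. CD14 was lowest in siControl replicate 1.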
